A study of Homo sapiens with 6 samples.

Results

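The genes described here are 10 members of the PARP family, PARP1, PARP2, PARP3, PARP4, PARP6, PARP8, PARP9, PARP10, PARP12 and PARP14, out of 25343 gene lines in the count table, of which 15499 had enough reads to be tested. They were taken by symbol, and all 10 were found and passed the filter on low counts. The list was drawn up with the contrast of panobinostat against vehicle already known, so the members' differences in that contrast are given as a description, without p-values. It leaves out 7 further genes of the family (TNKS, TNKS2, TIPARP, PARP11, PARP15, PARP16 and ZC3HAV1), which are described separately.

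PARP enzymes take ADP-ribose from NAD+ and attach it to proteins and nucleic acids. Some build long chains, whereas most add a single unit, and a few family proteins carry a fold that has lost the activity. The family is best known for the sensing of DNA breaks by PARP1 and PARP2, the targets of PARP inhibitors used in cancer, and several other members are induced by interferon and act against viruses.

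RNA came from parental A375, an established human melanoma line, in 2 groups of 3 libraries. Vehicle libraries were from cells given PBS (0 nM drug), and panobinostat libraries from cells exposed to 50 nM panobinostat, an inhibitor of histone deacetylases, both for 24 h. No genetic change was made in either group. Nothing in the labels says that the libraries of a group came from separate cultures, so spreads and p-values cover the differences between these libraries, which may be technical.

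Libraries held 32293283 to 38944399 reads assigned to genes. Levels are given in CPM, the usual unit of reads scaled by library size, here with library sizes adjusted by the TMM factors of edgeR. By unadjusted library size, 3 reads in a library correspond to 0.077 to 0.0929 CPM. Log2 fold changes are panobinostat against vehicle, ± SE. A call means an adjusted p under 0.05 in the quasi-likelihood test of edgeR, adjusted by Benjamini-Hochberg over all genes tested. Of the melanoma lineage markers, SOX10 went from 813 ± 56.3 CPM in vehicle libraries to 368 ± 21.8 CPM in panobinostat libraries (SD, n = 3), MITF from 53.5 ± 2.23 to 33.2 ± 0.716 CPM and S100B from 71.9 ± 0.877 to 11.4 ± 0.575 CPM, and all 3 fell (edgeR adjusted p = 4.14e-11, 1.16e-09 and 6.32e-17). The pigment genes MLANA and TYR had 0 reads in all 6 libraries, DCT did not exceed 0.293 CPM in either group's mean, and PMEL stood at 0.628 ± 0.118 CPM in vehicle and rose to 194 ± 9.46 CPM (edgeR adjusted p = 1.72e-20). The 8 markers of epithelial, leukocyte, endothelial, erythroid and liver cells summed to 0.232 to 0.363 CPM in vehicle libraries and 3.78 to 4.27 CPM in panobinostat libraries. CDH1, PTPRC and HBB were at 0 in vehicle. EPCAM and PECAM1 rose, the latter to 2.91 ± 0.292 CPM.

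Together the 10 genes took 0.109% to 0.110% of all reads in the vehicle libraries and 0.0659% to 0.0682% in the panobinostat libraries. Such a share is a scaling by total reads, so it also depends on changes in all other genes. Of the 10 members, 8 were lower with panobinostat and 1 was higher at the call threshold, and 4 were at least 2-fold lower. Among all genes tested 82.8% were called, 41.0% as lower and 41.8% as higher, and 11.7% were called at least 2-fold lower. The libraries of the groups did not overlap for 9 of the 10 members, against 83.4% of all genes, and lay wholly above in vehicle for 8, against 41.5% of all genes. The members' median log2 fold change was -0.89, and that of all genes tested was 0.01. The contrast was known when the members were chosen, so nothing is read from these counts. In bulk RNA, fewer cells of a kind and less RNA per cell cannot be told apart.

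**Figure D1:**
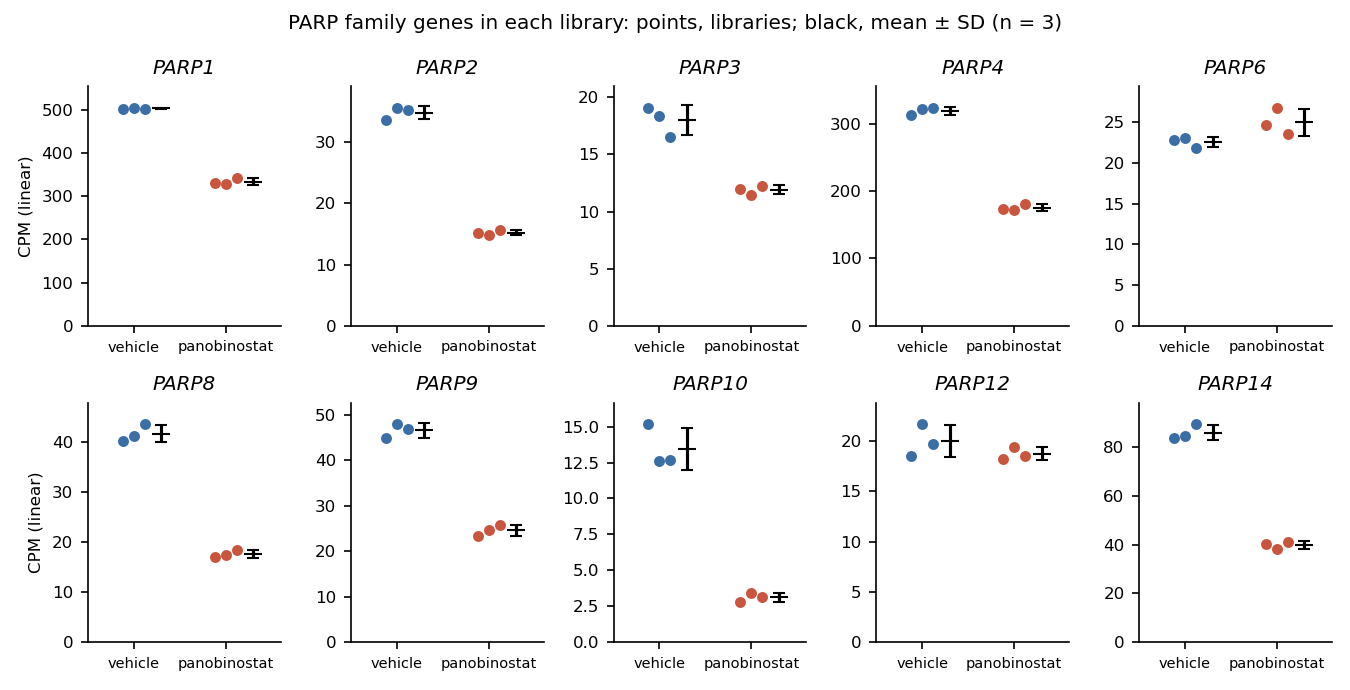
CPM (linear axes from 0) of each of the 10 PARP family genes in the 3 vehicle and 3 panobinostat libraries; points are libraries and black marks are the mean ± SD. The groups are apart in every panel but that of PARP12, where vehicle libraries span 18.5 to 21.6 CPM and panobinostat libraries 18.2 to 19.4 CPM.

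The DNA-break enzymes were all lower with panobinostat, and by unequal amounts, where 41.0% of all genes tested fell and 82.8% were called. PARP1, the main source of poly(ADP-ribose) at broken DNA, stood at 502.3, 504.0 and 501.8 CPM in vehicle replicates 1, 2 and 3 and at 329, 327 and 342 CPM in the panobinostat libraries. The vehicle libraries were nearly equal, with an SD of 1.16 CPM, and all lay above the highest panobinostat library. PARP1 with panobinostat was at 66.2% of its vehicle level, a log2 fold change of -0.60 ± 0.03. PARP2, its close relative that also answers strand breaks, had 33.5, 35.5 and 35.2 CPM in vehicle and 15.1, 14.9 and 15.6 CPM with panobinostat. That is 43.7% of the vehicle level (log2 fold change -1.19 ± 0.06). PARP3, which adds single ADP-ribose units and acts in the joining of double-strand breaks, had 19.1, 18.4 and 16.5 CPM in vehicle and 12.02, 11.5 and 12.3 CPM with panobinostat. Its vehicle libraries were more spread than those of PARP1 (7.38% against 0.232% of the mean, as SD), yet the lowest stood above every panobinostat library. The log2 fold change of PARP3 was -0.60 ± 0.07, close to that of PARP1.

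Ratios of reads within a library do not depend on how libraries are scaled. For each read of PARP2 there were 14.5 ± 0.442 reads of PARP1 in vehicle and 21.9 ± 0.0718 with panobinostat (SD, n = 3), and the groups did not overlap. The ratio of PARP3 to PARP2 reads was 0.519 ± 0.05 in vehicle and 0.785 ± 0.0133 with panobinostat. PARP2 was thus lower in proportion than both PARP1 and PARP3.

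**Figure D2:**
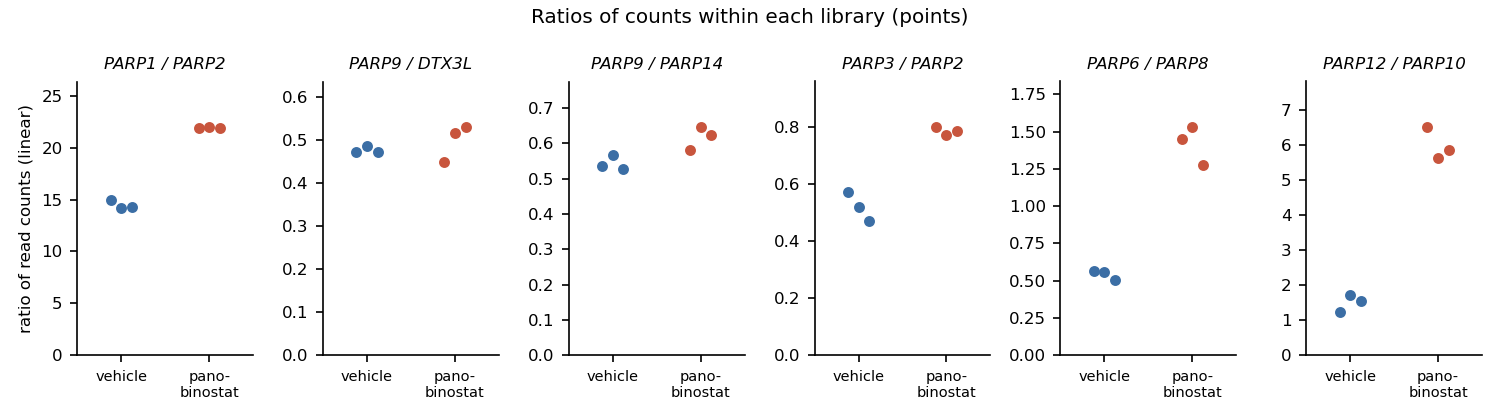
Ratios of read counts between pairs of genes within each library (linear axes from 0; points are libraries). The ratio of PARP1 to PARP2 is 14.2 to 14.99 in vehicle and 21.9 to 22.0 with panobinostat, whereas the ratio of PARP9 to DTX3L overlaps between the groups.

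Of 12 genes listed as strand break partners of PARP1 and PARP2, 11 fell, 0 rose and 1 did not pass, with a median of -0.51, where 41.0% of all genes fell and 82.8% were called. The list is broad, and a direct role of the H2AFY2 product with PARP1 or PARP2 is not claimed. DESeq2 and limma-voom also called 0 genes of this list higher, as did an unadjusted edgeR p under 0.05. Under upper quartile scaling 9 fell, and under a filter of 5 CPM in at least 3 libraries 9 of 11 tested fell. The falls with the smallest adjusted p in this list were those of TIMELESS, a replication fork protein that binds PARP1, H2AFY2, a macroH2A histone, and LIG3, the ligase that seals single-strand breaks. TIMELESS went from 86.5 ± 3.94 to 25.7 ± 1.37 CPM (edgeR adjusted p = 8.06e-15). H2AFY2 went from 13.2 ± 0.712 to 1.57 ± 0.138 CPM (edgeR adjusted p = 2.98e-14). LIG3 went from 66.1 ± 0.973 to 26.0 ± 1.21 CPM (edgeR adjusted p = 1.23e-13). XRCC1, the scaffold drawn to ADP-ribose chains, fell less, from 49.3 ± 2.37 to 37.5 ± 0.317 CPM (log2 fold change -0.40 ± 0.05, edgeR adjusted p = 1.6e-06). Proliferation markers moved with these genes: 5 of 5 fell, MKI67 from 868 ± 9.17 to 245 ± 5.84 CPM, and their summed level was 2063 to 2094 CPM in vehicle libraries and 825 to 853 CPM with panobinostat. Their part in the lower PARP and strand-break levels was not tested.

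PARP4 is the PARP of the vault, a large ribonucleoprotein particle of the cytoplasm. It had 312, 322 and 323 CPM in vehicle and 173, 172 and 181 CPM with panobinostat, with no overlap. That is 55.0% of the vehicle level, a log2 fold change of -0.86 ± 0.04. The other proteins of the particle moved apart from one another. MVP, which forms the shell, rose from 89.8 ± 4.78 to 305 ± 9.78 CPM (edgeR adjusted p = 5.55e-16), and TEP1, a protein shared with telomerase, fell from 52.3 ± 2.67 to 40.7 ± 0.946 CPM (edgeR adjusted p = 5.4e-06). TEP1 is one of the protein-coding neighbours of PARP2 in RefSeq; the other, CCNB1IP1, did not pass (log2 fold change -0.05 ± 0.05). RefSeq lists 3 pseudogene copies of PARP4 and 2 of PARP1, none of which has a line in the count table, so reads shared with them are an uncertainty in the levels of PARP1 and PARP4.

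PARP6 and PARP8 are related enzymes that add single ADP-ribose units, and they stood apart from each other. PARP6 had 22.8, 23.0 and 21.9 CPM in vehicle and 24.6, 26.8 and 23.5 CPM with panobinostat. Its groups did not overlap, but the gap between the highest vehicle and the lowest panobinostat library was smaller than the spread within the panobinostat libraries. The log2 fold change of PARP6 was 0.15 ± 0.06, the only positive one among the members. Its call was lost in fits without any one of the vehicle replicates (0.11 to 0.14), without panobinostat replicate 1 (0.16) or 2 (0.09), unfiltered (0.10) and with a replicate block (0.14). PARP6 shares 12.5% of its exon bases in GENCODE with an overlapping protein-coding gene model on the same strand, AC009690.3, which has no line in the table. PARP8 had 40.3, 41.2 and 43.5 CPM in vehicle and 17.0, 17.5 and 18.4 CPM with panobinostat, 42.3% of its vehicle level (log2 fold change -1.24 ± 0.06). The ratio of PARP6 to PARP8 reads went from 0.543 ± 0.0342 in vehicle to 1.42 ± 0.129 with panobinostat. PARP6 had fewer reads than PARP8 in every vehicle library and more in every panobinostat library.

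The remaining 4 members, PARP9, PARP10, PARP12 and PARP14, are known from interferon responses. PARP9 works with the ubiquitin ligase DTX3L, PARP14 carries macrodomains and is tied to STAT6 signalling, PARP10 adds single ADP-ribose units, and PARP12 has zinc fingers that bind RNA. The genes for PARP9, DTX3L, PARP15 and PARP14 follow one another on chromosome 3 in RefSeq, with no other protein-coding gene between them. Promoter windows of 300 bases (250 before and 50 after an annotated start, RefSeq, GRCh38.p14) were found for 8 of the 10 members. PARP4 and PARP10 had no entry. Windows were searched on both strands for the letters of an interferon-stimulated response element, TTTCNNTTTC. The 8 members have 11 windows, since PARP8 has 3 annotated starts and PARP9 has 2. The letters were in 3 of the 11 windows, 1 each of PARP9, PARP12 and PARP14, against 3.57% of all 35116 windows. The stretches of 30 bases round the matches are shown with the matched 10 bases in capitals, 5′ to 3′ along each gene:
PARP9, chr3:122564322-122564351, minus strand: gggcgcaaagTTTCAGTTTCgcttccctgg
PARP14, chr3:122680800-122680829, plus strand: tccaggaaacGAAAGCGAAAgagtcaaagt
PARP12, chr7:140062942-140062971, minus strand: ccggggccgcTTTCGGTTTCgtttcccgcc
In PARP14 the match lies on the strand opposite to the gene. Counted from the RefSeq start of the matched window, the match begins at position -41 in PARP9, -29 in PARP14 and -10 in PARP12. All 30 bases of each stretch lie in exons annotated in GENCODE, counting either strand. A negative position therefore does not mark the bases as untranscribed. The bases matched in PARP9, chr3:122564332-122564341, are the same as those matched in the window of DTX3L, where they begin at position -6 and read GAAACTGAAA, so a single stretch of DNA lies in the windows of both genes. Letters of a STAT palindrome, TTCNNNGAA, were found in 2 of the 11 windows, those of PARP2 and PARP14 (7.66% of all windows), and those of an E2F site, TTTCGCGC or TTTGGCGC, in 0 of the 11 (1.15% of all windows). In PARP14 the STAT match begins at position -40, so it overlaps the 30 bases shown. A match of letters is a description of the window and not a bound site. Any part of these letters in the response to panobinostat was not tested.

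Of these 4 members, 3 were lower with panobinostat and 1 differed little, where 41.0% of all genes tested fell and 82.8% were called. PARP9 had 44.8, 47.9 and 46.9 CPM in vehicle and 23.4, 24.6 and 25.7 CPM with panobinostat. PARP14 had 83.6, 84.4 and 89.1 CPM in vehicle and 40.3, 38.1 and 41.1 CPM with panobinostat. Neither gene's groups overlapped, and the panobinostat levels were 52.8% and 46.5% of the vehicle levels (log2 fold changes -0.92 ± 0.06 and -1.11 ± 0.05). PARP10 had 15.2, 12.6 and 12.7 CPM in vehicle and 2.79, 3.45 and 3.16 CPM with panobinostat, from 101 to 126 reads a library. That is 23.2% of the vehicle level, the lowest of the 10, and the log2 fold change of -2.11 ± 0.11 placed PARP10 at rank 395 of 15499 genes ordered from the largest fall. PARP12 had 18.5, 21.6 and 19.7 CPM in vehicle and 18.2, 19.4 and 18.5 CPM with panobinostat. Its groups overlapped, and the log2 fold change of -0.09 ± 0.07 changed sign with upper quartile scaling (0.03) and under a stricter filter of 5 CPM in at least 3 libraries (0.00464). Without vehicle replicate 1 PARP12 was called lower (-0.16). For each read of PARP10 there were 1.5 ± 0.255 reads of PARP12 in vehicle and 6.01 ± 0.458 with panobinostat.

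DTX3L, the partner of PARP9, fell from 97.4 ± 2.49 to 49.4 ± 2.34 CPM (log2 fold change -0.98 ± 0.05, edgeR adjusted p = 3.09e-12). The ratio of PARP9 to DTX3L reads was 0.473, 0.487 and 0.472 in vehicle and 0.45, 0.516 and 0.53 with panobinostat, so the groups overlapped. The ratio of PARP9 to PARP14 reads was 0.543 ± 0.0215 in vehicle and 0.618 ± 0.0336 with panobinostat, with the lowest panobinostat library (0.581) just above the highest vehicle library (0.568). PARP9 and DTX3L overlap by 217 exon bases on opposite strands in GENCODE, 2.77% of the exon bases of PARP9, and how strands were treated in the counting is not known here. Of the genes that flank the group, chosen by position, WDR5B and KPNA1 rose, with log2 fold changes of 0.50 ± 0.06 and 0.15 ± 0.04 (edgeR adjusted p = 4.03e-07 and 0.00189). HSPBAP1 fell like the group but by less, with a log2 fold change of -0.25 ± 0.08 (edgeR adjusted p = 0.0053). The next gene, SLC49A4, was not tested under that RefSeq symbol.

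The interferon and STAT genes linked to these members showed no single direction. Of 10 genes reported, 4 rose, 5 fell and 1 did not pass (41.8% and 41.0% of all genes rose and fell), with a median of -0.10 that ranged from -0.14 to 0.02 over the alternative settings. The transcription factor IRF1 rose from 9.09 ± 0.299 to 16.7 ± 1.14 CPM (edgeR adjusted p = 6.16e-09). The kinase JAK1 rose from 142 ± 0.506 to 168 ± 2.87 CPM, and the ubiquitin-like protein ISG15 rose from 1.77 ± 0.153 to 2.53 ± 0.313 CPM. STAT6 fell from 83.2 ± 2.28 to 23.5 ± 1.27 CPM (edgeR adjusted p = 2.88e-15), and the kinase TYK2 fell from 75.04 ± 5.45 to 57.3 ± 0.171 CPM.

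**Figure D3:**
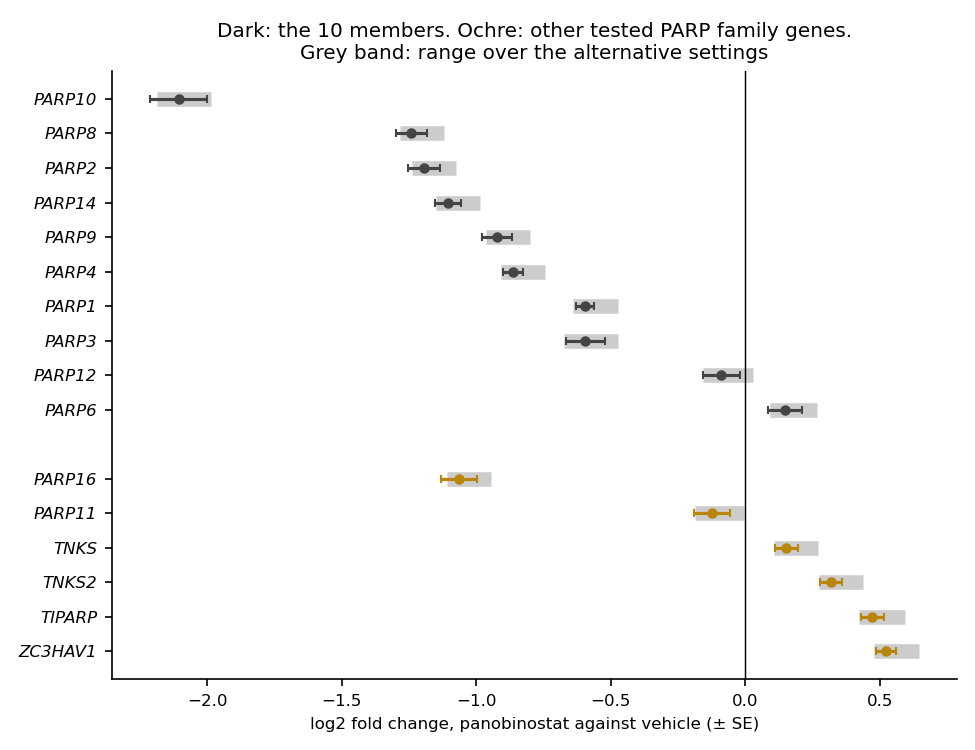
Log2 fold changes of panobinostat against vehicle (± SE) for the 10 members (dark) and the 6 other tested genes of the family (ochre); grey bands span 14 alternative settings. Members run from -2.11 (PARP10) to 0.15 (PARP6), and the band of PARP12 crosses 0.

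The 6 tested genes of the family outside the list were ZC3HAV1, TIPARP, TNKS2, TNKS, PARP16 and PARP11. Of these 4 rose, 1 fell and 1 did not pass, with a median of 0.23, where 82.8% of all genes were called and 41.8% rose. The groups did not overlap for any of the 6, against 83.4% of all genes. ZC3HAV1, an antiviral protein that binds RNA and lacks the enzyme activity, rose from 121 ± 2.15 to 174 ± 2.02 CPM (edgeR adjusted p = 5.97e-10). TIPARP, an enzyme induced by the aryl hydrocarbon receptor, rose from 87.9 ± 4.44 to 122 ± 1.98 CPM (edgeR adjusted p = 2.38e-08). The tankyrases, which build chains and act on telomeres and WNT signalling, rose by less. The log2 fold change was 0.32 ± 0.04 for TNKS2 and 0.15 ± 0.04 for TNKS (edgeR adjusted p = 2.18e-06 and 0.0036). PARP16, an enzyme anchored in the endoplasmic reticulum, fell from 19.2 ± 0.467 to 9.19 ± 0.332 CPM (edgeR adjusted p = 1.34e-10). PARP11 stood at 17.1 ± 1.07 and 15.7 ± 0.223 CPM and did not pass, although it was called lower without vehicle replicate 1 (-0.19) and unfiltered (-0.17). PARP15 had 0, 0 and 1 reads in vehicle and 1, 2 and 2 with panobinostat, at or under the floor of 3 reads in each library, so no fold is given.

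Compared per length, on a scale of CPM per kb of annotated exon, PARP1 was the most abundant member in vehicle, at 118 ± 0.273 CPM per kb, followed by PARP4 at 58.3 ± 1.08 and PARP2 at 17.1 ± 0.529. PARP14 came next at 10.8 ± 0.382 CPM per kb. PARP6 (7.91 ± 0.209) and PARP3 (7.26 ± 0.536) overlapped in range, as did PARP12 (5.26 ± 0.417) and PARP8 (5.26 ± 0.21). PARP9 lay between those pairs at 5.94 ± 0.202 CPM per kb, and PARP10 was lowest at 3.71 ± 0.402. With the longest coding transcript as the length, a choice made after seeing the data, PARP8 and PARP12 changed places and the other ranks were as given. With panobinostat PARP1 (78.1 ± 1.91 CPM per kb) and PARP4 (32.04 ± 0.861) were still ahead of the rest, PARP6 (8.75 ± 0.576) came next and PARP10 (0.862 ± 0.0904) last. PARP1 made up 49.3 ± 0.325% of the summed per-length level of the 10 genes in vehicle and 53.0 ± 0.313% with panobinostat. PARP2 went from 7.12 ± 0.168% to 5.06 ± 0.0458% of that sum, PARP6 from 3.3 ± 0.0896% to 5.94 ± 0.483% and PARP12 from 2.19 ± 0.158% to 3.35 ± 0.147%.

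**Figure D4:**
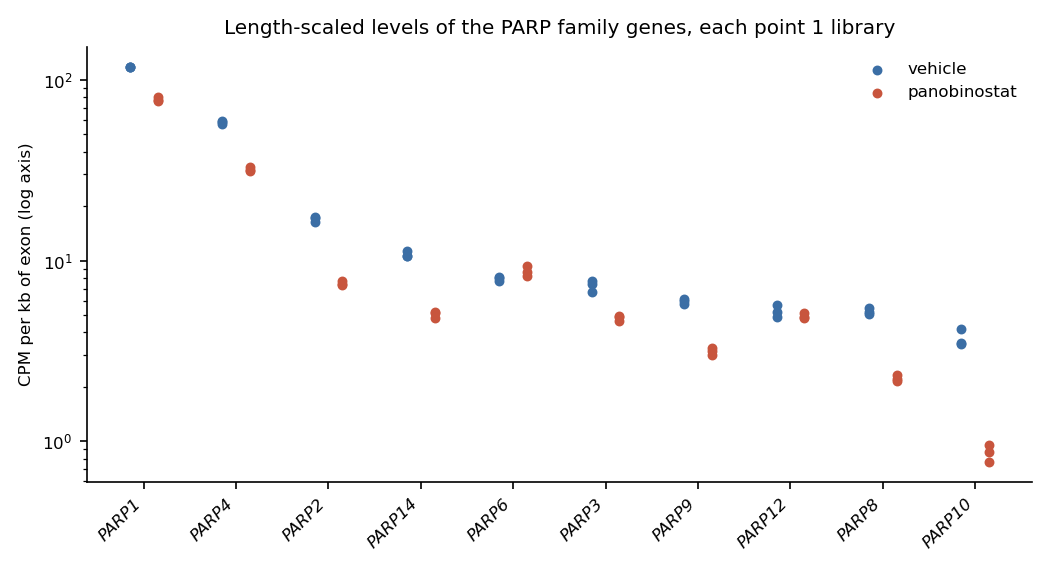
CPM per kb of annotated exon (log axis) of the 10 members in each library, ordered by the vehicle mean; blue points are vehicle and red points panobinostat libraries. PARP1 (118 and 78.1 CPM per kb) and PARP4 (58.3 and 32.04) lead in both groups, and PARP10 is lowest in both (3.71 and 0.862).

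Of 7 tested enzymes that take ADP-ribose off again, 4 fell, 0 rose and 3 did not pass, with a median of -0.41. Among all genes 41.0% fell and 82.8% were called. Under upper quartile scaling, and likewise under the 5 CPM filter, 1 rose, whereas DESeq2 and limma-voom gave 0 rises, as did an unadjusted edgeR p under 0.05. ADPRH, which removes ADP-ribose from arginine, fell from 9.25 ± 0.591 to 2.95 ± 0.153 CPM (edgeR adjusted p = 6e-11), OARD1 from 25.4 ± 1.85 to 13.1 ± 1.14 CPM (edgeR adjusted p = 2.75e-09) and MACROD1 from 17.2 ± 1.51 to 9.38 ± 0.869 CPM (edgeR adjusted p = 3.77e-08); the last 2 cleave the single units added by most family members. PARG, which degrades the chains made by PARP1, did not pass, at 23.7 ± 1.49 CPM in vehicle libraries and 21.8 ± 0.217 CPM in panobinostat libraries (log2 fold change -0.12 ± 0.06). That value was 0.0010 with upper quartile scaling, and PARG was called lower without vehicle replicate 1 (-0.19) and with no filter on low counts (-0.16). For each read of PARG there were 21.3 ± 1.37 reads of PARP1 in vehicle and 15.2 ± 0.226 with panobinostat.

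NAD+ is the substrate of the family. Of 8 tested genes that make NAD+ or, in the case of NADK, use it to make NADP+, 3 rose, 3 fell and 2 did not pass, with a median of 0.12, where 41.8% of all genes rose and 41.0% fell. NAMPT, the rate-limiting enzyme of NAD+ salvage, rose from 86.3 ± 11.4 to 182 ± 16.0 CPM (edgeR adjusted p = 6.64e-05). NMNAT2, which completes NAD+ outside the nucleus, rose from 8.32 ± 0.405 to 45.7 ± 1.81 CPM (edgeR adjusted p = 9.19e-16), and the nicotinamide riboside kinase NMRK1 rose from 1.89 ± 0.119 to 8.59 ± 0.441 CPM (edgeR adjusted p = 3.98e-12). NADK fell from 41.8 ± 1.19 to 21.4 ± 0.852 CPM (edgeR adjusted p = 3.67e-11). NADSYN1 and NAPRT1, enzymes of other routes to NAD+, fell with log2 fold changes of -0.36 ± 0.08 and -0.48 ± 0.11 (edgeR adjusted p = 0.000484 and 0.000599). NMNAT3 had too few reads to be tested.

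**Figure D5:**
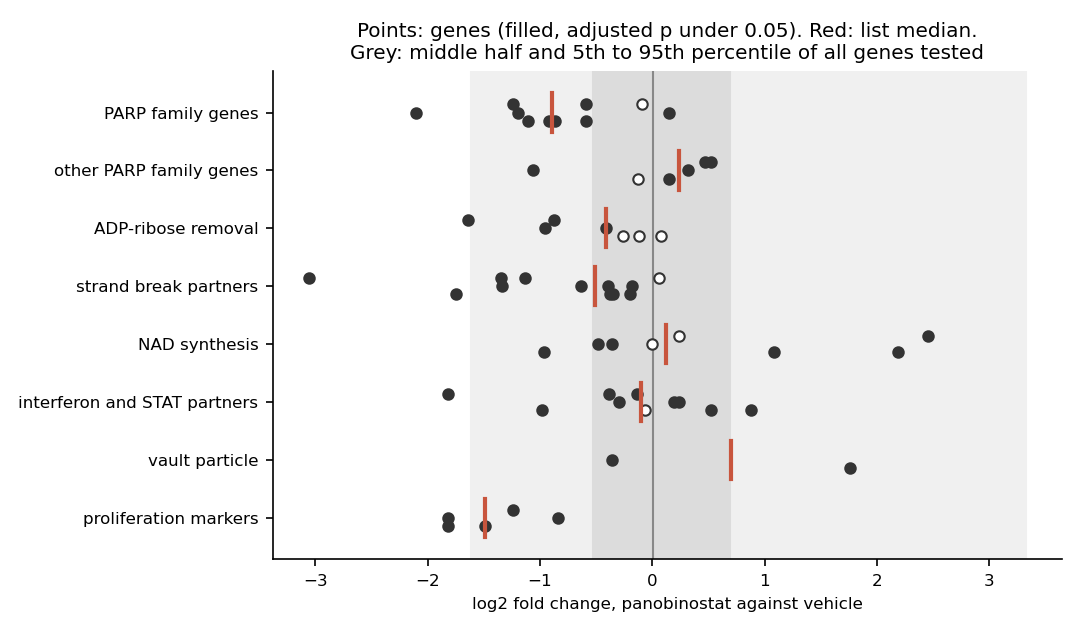
Log2 fold changes of panobinostat against vehicle for the tested genes of 8 lists; filled points passed an adjusted p of 0.05, red marks are list medians, and grey shading gives the middle part and the 5th to 95th percentile range of all genes tested. Medians below 0 are those of the members (-0.89), strand break partners (-0.51), proliferation markers (-1.49), ADP-ribose removal (-0.41) and interferon and STAT partners (-0.10). Those above 0 are of the other family genes (0.23), NAD synthesis (0.12) and the vault particle (0.70).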

How the data were processed

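The authors deposited raw read counts per gene symbol with no normalization, per the values in the deposited table, whose name gives STAR as the aligner. The STAR version, genome build, annotation, library kit and strandedness are unknown here (not given in the sources used here). Columns were matched to samples by title and groups taken from the labelled dose. The 92 spike-in lines, with 0 counts, were left out. After filterByExpr and TMM scaling, the group difference was tested by the quasi-likelihood F test of edgeR, with no covariate. The SE is the log2 fold change divided by the square root of F. Within groups, libraries differed beyond sampling noise (chi-square per degree of freedom 1.9 to 9.14, against 312 to 359 between groups). On counts simulated from the vehicle levels (14361 genes, 200 changed), edgeR recovered 72% of genes changed 1.25-fold, 92% at 1.5-fold and 100% at 2-fold, and 5.21% of its calls were unchanged genes. In the data 82.8% of the genes tested were called, a far larger share than was changed in the simulation. These rates therefore check the code and do not carry over to this contrast.

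The members, lists and tests were chosen with earlier results of these data known. Named genes were all members and other family genes, and of each further list up to 3 called genes per direction by adjusted p, genes too low to test, lists of 2 whole, and DTX3L, PARG, XRCC1 and MKI67. A gene that the rule takes is not reported here. Exon lengths and overlaps came from GENCODE release 29, and promoter windows from RefSeq. Software was R 4.3.3, edgeR 4.0.16, limma 3.58.1, DESeq2 1.42.0, Python 3.11.15 and matplotlib 3.10.9. The alternatives changed the scaling (RLE, upper quartile, library size), the filter (none, or 5 CPM in 3 libraries), the tool (DESeq2, limma-voom), added the replicate number as a block, or left out each library.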

Additional observations from a re-analysis of the deposited data

How the results depend on the processing

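The members were chosen with this contrast known, so their calls across settings describe the processing and are no evidence for the differences. Over 14 alternatives the members called lower numbered 8 to 9, and the calls of PARP6 and PARP12 varied. The count of members called higher, which is PARP6 alone, was 0 without a filter on low counts, 0 in the replicate block fit, and 0 to 1 over the fits that left out a library, where it was lost without any vehicle replicate and without panobinostat replicate 1 or 2; the log2 fold change of PARP6 was 0.09 to 0.27 throughout. PARP12 changed sign with upper quartile scaling (0.030) and the 5 CPM filter (0.00464), and was called lower without vehicle replicate 1 (-0.16). PARG changed sign with upper quartile scaling (0.0010). Other family genes called lower numbered 2 when low counts were not filtered, and 1 to 2 over the fits without a library, PARP11 being added without vehicle replicate 1. ADP-ribose removal genes called higher numbered 1 under upper quartile scaling and likewise 1 under the 5 CPM filter. Upper quartile scaling moved the median of all genes by 0.12 on the log2 scale. Deviations from the group means were not positively correlated between same-numbered libraries (-0.08, -0.06 and -0.14). With 3 libraries a group such deviations constrain one another, so this cannot exclude a pairing or a shared batch. With the replicate block 12409 genes were called, against 12826. The 3 libraries a group limit the precision of every SE, and the floor of 3 reads covers counting error only.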

Other observations

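The table holds 5 further gene lines named after the family, chosen after their values were seen. PARPBP, which binds PARP1 and restrains homologous recombination, fell from 29.6 ± 2.38 to 10.8 ± 0.69 CPM (SD, n = 3; edgeR adjusted p = 7.75e-12). TNKS1BP1, a tankyrase-binding protein, rose from 112 ± 3.95 to 182 ± 4.75 CPM (edgeR adjusted p = 3.67e-11). ZC3HAV1L, a relative of ZC3HAV1, fell from 4.3 ± 0.547 to 2.81 ± 0.236 CPM (edgeR adjusted p = 0.000269). The antisense lines TIPARP-AS1 and TNKS2-AS1 rose from 0.316 ± 0.148 to 1.98 ± 0.171 CPM and from 0.53 ± 0.15 to 1.07 ± 0.0754 CPM (edgeR adjusted p = 3.8e-08 and 0.000841). Both antisense levels are uncertain, since how strand was treated in counting is unknown here.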
